A study of Mus musculus with 21 samples.

Results

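Imprinted genes are transcribed mainly or only from the chromosome of one parent. The 10 imprinted genes described here are Snrpn, Peg3, Plagl1, Mest, Igf2r, Impact, Sfmbt2, Gab1, Jade1 and Slc38a4, which were taken by name from known imprinted genes of both classes described below. Of the 10 genes, 9 had at least 1 transcript on their own strand in the merged long-read annotation, out of 10917 genes that had one, and these 9 genes held 14 of its 22612 transcripts. Peg3, a zinc finger gene, had no transcript in the merged set or in any long-read pool, so no level of Peg3 is given.

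RNA of mouse gametes and embryos was reverse-transcribed, amplified and sequenced as 14 short-read libraries, 2 for each of 7 stages, and as 7 long-read pools, 1 for each stage. The study collected 2 batches of pooled material at each stage, and each batch gave 1 short-read library, while the long-read pool mixed both batches. The values are TPM, a share of all transcripts of a library that is corrected for transcript length and scaled to the same total in each library, and a gene level is the sum over its merged long-read transcripts. The files hold no allelic values, so neither the parental origin of a transcript nor its imprinted state was measured here.

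Sperm was taken from the epididymis of males labelled DBA/2J, which the protocol calls DBA/2N. MII oocytes came from superovulated females of the strain labelled C57/BL6J, aged 3 to 5 weeks, at 20 h after the injection of hCG. All embryos were of the cross of such females with DBA/2J males and were cultured in KSOM medium. The 1-cell embryos were lysed at 24 to 26 h after hCG, the 2-cell embryos at 46 to 48 h, the 4-cell embryos at 54 to 58 h, the 8-cell embryos at 68 to 70 h and the blastocysts at 94 to 96 h. Superovulation and the females' strain were therefore shared by every group but sperm, and no stage carried a mutation or a further treatment.

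Most known imprints are set by DNA methylation that one germ line places at a control region and that the embryo keeps through the genome-wide loss of methylation after fertilization. At Snrpn, Peg3, Plagl1 and Mest the oocyte methylates the promoter, and the paternal allele is the active one. At Igf2r and Impact the region methylated in the oocyte lies inside the gene. In growing oocytes such regions are known to be crossed by transcripts that begin at upstream promoters. Sfmbt2, Gab1, Jade1 and Slc38a4 belong to another class, whose maternal allele is silenced by the histone mark H3K27me3 inherited from the oocyte.

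The long reads of Mest and Plagl1 began upstream of the promoter that carries the imprint, and the promoter sequences are shown here to make that difference visible. The sequences are the RefSeq promoters of GRCm38.p6, from 250 bases before the start, cut to 260 bases and written 5′ to 3′ on the strand of the gene. Capitals mark the 6 bases TGCCGC or their reverse complement GCGGCA, the core that the imprint-protecting protein ZFP57 is known to bind when it is methylated. Of 32851 RefSeq promoter windows of 300 bases, 11.6% held a match on either strand and 1.53% held at least 2.
Mest upstream promoter, chr6:30733256-30733515, plus strand: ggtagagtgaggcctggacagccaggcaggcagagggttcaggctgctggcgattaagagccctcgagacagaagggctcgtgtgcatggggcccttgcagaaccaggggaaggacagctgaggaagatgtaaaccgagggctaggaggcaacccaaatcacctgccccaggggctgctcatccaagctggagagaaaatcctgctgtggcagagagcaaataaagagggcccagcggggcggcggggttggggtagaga
Mest imprinted promoter, chr6:30737800-30738059, plus strand: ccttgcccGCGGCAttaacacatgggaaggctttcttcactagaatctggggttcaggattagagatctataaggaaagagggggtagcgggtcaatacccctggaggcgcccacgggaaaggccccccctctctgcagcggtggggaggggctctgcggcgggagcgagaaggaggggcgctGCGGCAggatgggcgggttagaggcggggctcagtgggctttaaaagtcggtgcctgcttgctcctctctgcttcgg
Plagl1 imprinted promoter, chr10:13090582-13090841, plus strand: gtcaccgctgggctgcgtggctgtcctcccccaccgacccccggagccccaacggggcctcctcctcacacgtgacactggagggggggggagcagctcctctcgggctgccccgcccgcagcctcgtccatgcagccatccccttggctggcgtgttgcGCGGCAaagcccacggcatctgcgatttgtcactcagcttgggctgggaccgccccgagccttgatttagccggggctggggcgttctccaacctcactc
Snrpn promoter, chr7:60005190-60005449, minus strand: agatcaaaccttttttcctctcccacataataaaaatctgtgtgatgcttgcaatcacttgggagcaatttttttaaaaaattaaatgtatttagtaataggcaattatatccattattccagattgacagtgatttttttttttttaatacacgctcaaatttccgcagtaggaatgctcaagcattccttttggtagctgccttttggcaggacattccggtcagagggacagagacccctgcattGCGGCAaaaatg
Slc38a4 promoter, chr15:97055947-97056206, minus strand: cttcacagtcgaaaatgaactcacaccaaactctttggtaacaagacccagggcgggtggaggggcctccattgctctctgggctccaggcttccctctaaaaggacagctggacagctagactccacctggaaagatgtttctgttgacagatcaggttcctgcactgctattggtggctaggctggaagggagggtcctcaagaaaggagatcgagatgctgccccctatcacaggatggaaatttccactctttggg

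The imprinted promoter of Mest held the motif 2 times, at -242 and -67 bases from the start, and that of Plagl1 held it 1 time, at -90. The Snrpn window held 1 match that spans the start itself. The upstream Mest promoter and the Slc38a4 promoter held none, nor did the other RefSeq windows of these genes that were searched, except a second Mest window that begins 3 bases further on. A match is a string of letters and not a measured binding site. In CpG number, the upstream Mest window had 8 and the imprinted one 17, that of Plagl1 had 26, and those of Snrpn and Slc38a4 had 7 and 5, against a median of 7 over all windows.

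The long-read pools divided the genes by stage. Mest was seen as a long-read transcript only in the oocyte, 1-cell and 2-cell pools, and Plagl1 only in the oocyte and 1-cell pools, whereas Igf2r was seen in the 2-cell, 4-cell, 8-cell and blastocyst pools. Slc38a4 and Jade1 were seen in the blastocyst pool alone. Snrpn was seen in 5 of the 7 pools, Sfmbt2 in sperm and 2-cell, Gab1 in sperm and 4-cell and Impact in sperm. Each pool held between 7034 and 8831 transcripts in all and between 2 and 7 transcripts of these genes, so a gene without a long-read transcript in a pool can still have short reads there.

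**Figure D1:**
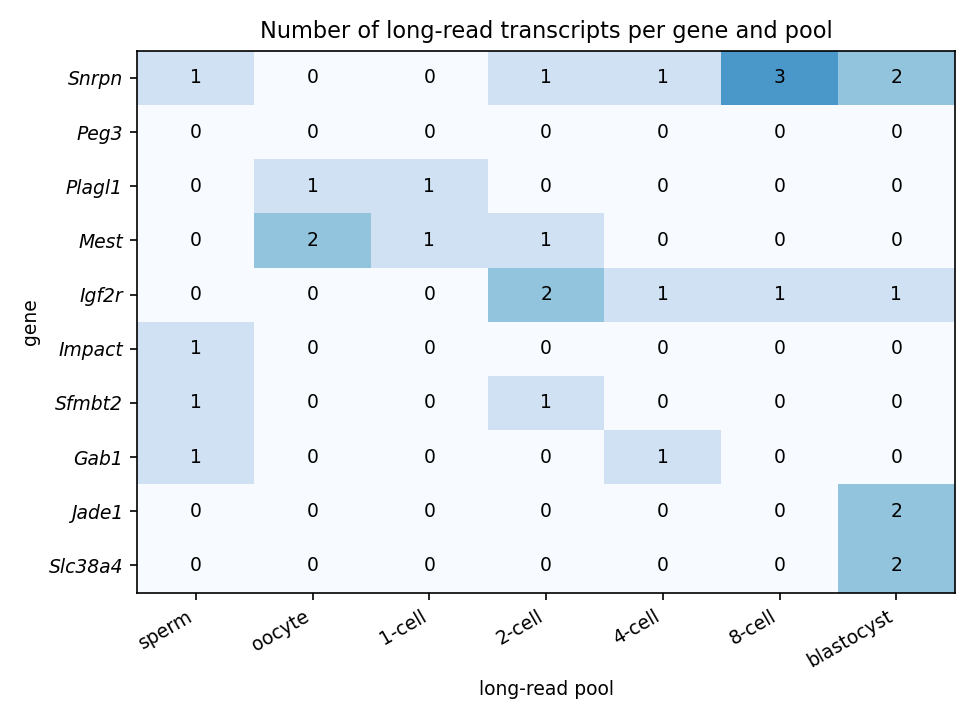
Number of long-read transcripts of each gene (rows) in the pool of each stage (columns), with darker blue for more. Mest and Plagl1 fill the early pools, Igf2r the pools from 2-cell on, and Peg3 has 0 in all 7.

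The structures showed which part of each gene the values come from. The Mest transcript ran through 12 exons and 2381 bases at chr6:30733503-30748457, with the introns of the annotated transcript Mest-210, and it began 3 bases before the Mest-210 start and 4547 bases before the RefSeq start at the imprinted promoter. It is the only merged Mest transcript, so short reads of every Mest isoform that shares its exons count toward it, and the short reads do not tell which promoter was used after the 2-cell stage. The Plagl1 transcript had 3 exons and 373 bases at chr10:13060603-13084706, all inside exons of an annotated Plagl1 transcript, and ended before the imprinted promoter, whose RefSeq start lies 30.2 kb downstream of its first base. It held no coding base, so the Plagl1 values cannot be read as the level of the messenger RNA of the zinc finger protein.

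The other structures ranged from whole messages to fragments. The main Snrpn transcript had 10 exons at chr7:59983109-60005142 with the introns of Snrpn-201 and all 720 coding bases, and a second began 17 bases before the Snrpn-201 start and the last 844 bases inside it. None began at the upstream exons that the annotation also lists. Snrpn overlaps Snurf and Gm38393 on its strand, and their reads cannot be told apart from its own. The 16 exons of Slc38a4 began at the annotated start base and covered all 1641 coding bases. Gab1 began 21275 bases inside the gene and covered 92.6% of the coding bases, and the longer Sfmbt2 transcript began 138 bases from an annotated start and covered 45.3%. Igf2r was seen as its last 9 exons with 20.6% of its coding bases, and Jade1 as 2 separate pieces of 423 and 579 bases in its last exon. The Impact value rests on a piece of 328 bases without an intron, of which 23.8% lay in Impact exons, and it is a value of that piece rather than of the whole gene.

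**Figure D2:**
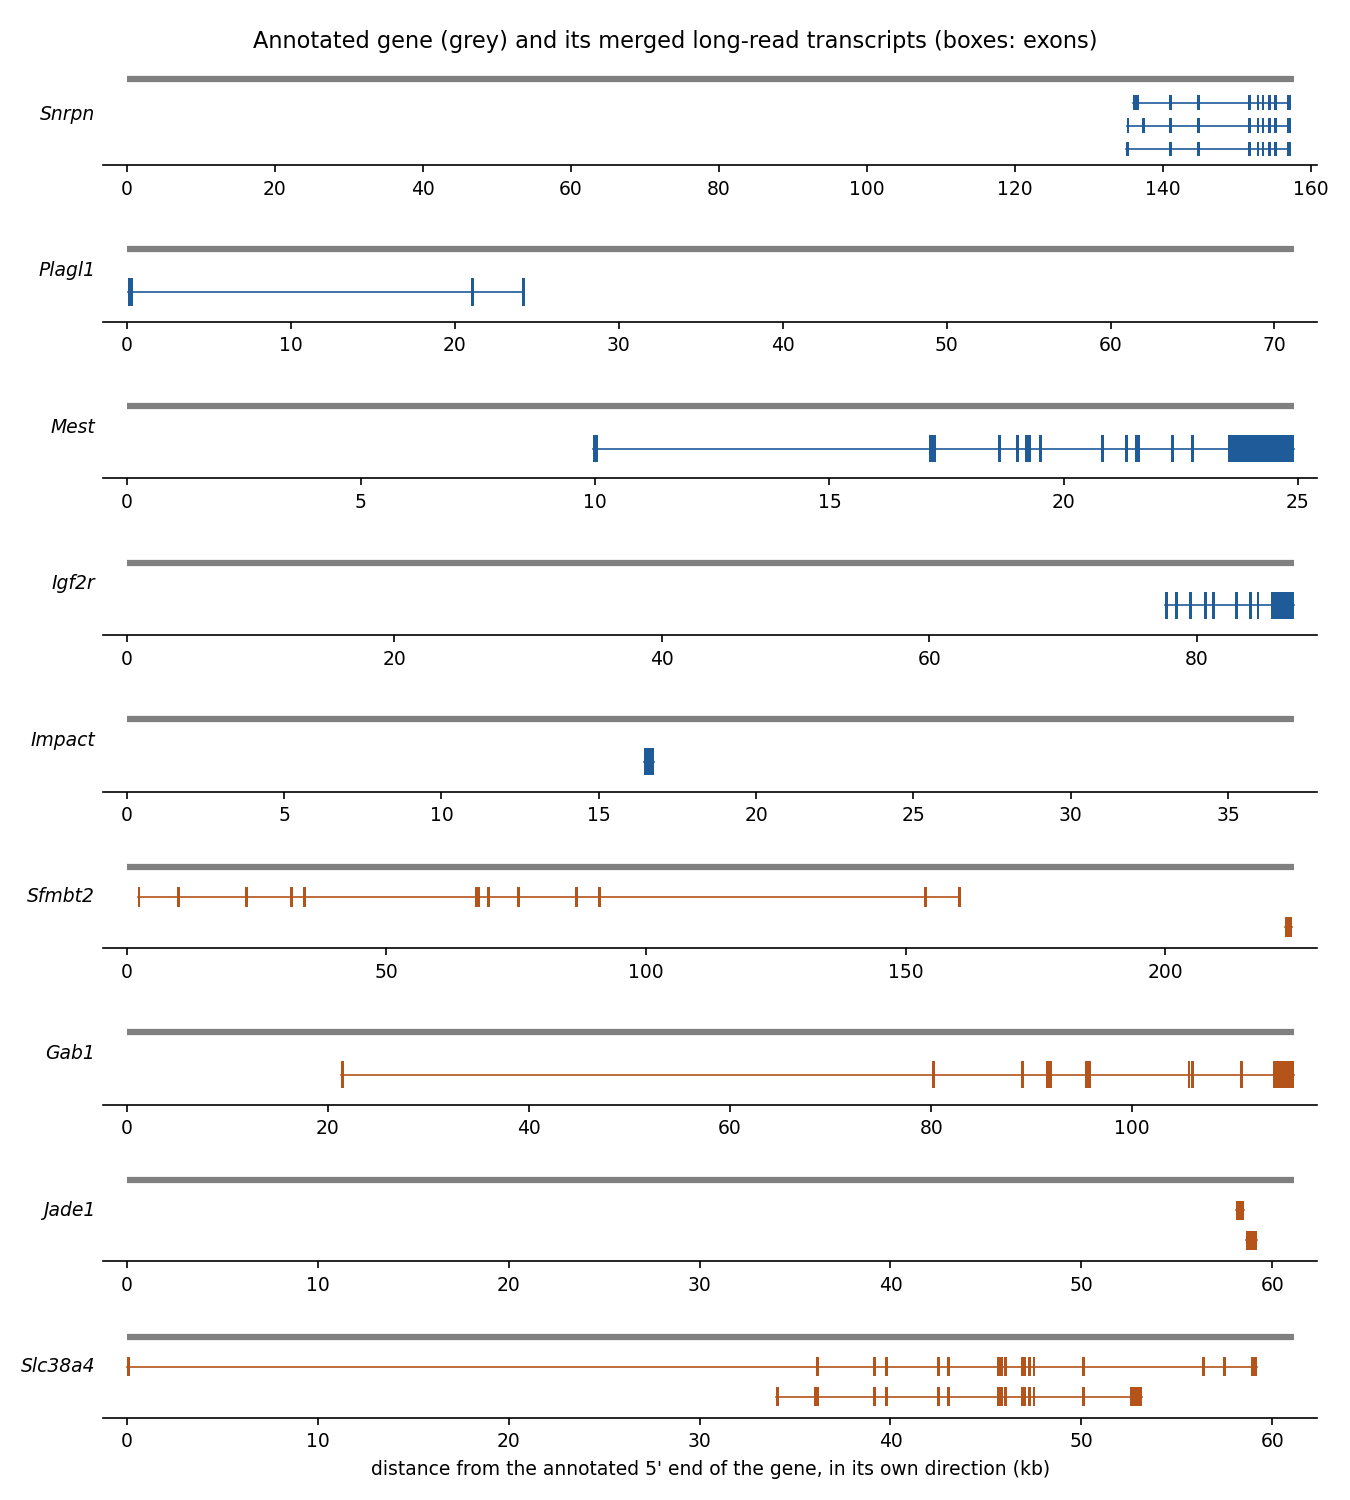
Merged long-read transcripts of the 9 genes, drawn as distance in kb from the annotated 5′ end of the gene in its own direction, with exons as boxes (blue, DNA methylation imprint; orange, H3K27me3 imprint) below the annotated span of the gene in grey. Mest begins near 10 kb, Plagl1 ends before 25 kb, and Igf2r and Jade1 are seen at the 3′ end only.

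Some libraries stood apart, which bears on the values that follow. Between 11416 and 19155 merged transcripts reached 1 TPM in a library. Read depth cannot be recovered from TPM and is not given here. The 2-cell libraries were each closer to a 4-cell library (Pearson r over genes on the log2 scale of 0.798 for 2-cell 1 and 0.790 for 2-cell 2) than to each other (0.739). The 5 genes that mark the 2-cell stage summed to 20.3 TPM in 2-cell 1 and 403 TPM in 2-cell 2, and the oocyte markers to 153 and 1381 TPM. The same 5 genes summed to 46.6 and 39.4 TPM at the 1-cell stage and to 17.2 and 20.8 TPM at the 4-cell stage. In this sum 2-cell 1 therefore did not stand above the libraries of the neighbouring stages. Among the single markers, Zscan4d (4.65 TPM, against at most 3.07 TPM) and Tcstv3 (5.57 TPM, against at most 5.09 TPM) did. Zscan4c, Zfp352 and Tcstv1 did not, and Tcstv1 alone had 38.3 and 22.5 TPM at the 1-cell stage. The 9 oocyte markers, among them the zona pellucida genes, were all at or above 1 TPM in both oocyte libraries, and the only cumulus or granulosa marker of 9 that had a transcript, Cd44, was at most 0.152 TPM in oocytes and embryos. In the sperm libraries all 7 sperm markers were present, but 4 leukocyte markers summed to 10192 and 1884 TPM there, against at most 23.6 TPM in any other library, and Crisp1 of the epididymis reached 2006 and 335 TPM. Sperm levels are therefore values of the sperm sample and cannot be assigned to sperm cells.

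Mest, which encodes a protein of the alpha/beta hydrolase fold family, was among the 2 genes with more transcript in the oocyte than in the blastocyst. Its level was 53.0 and 102 TPM in the 2 oocyte libraries, 99.95 and 51.6 TPM at the 1-cell stage, 26.3 and 77.0 TPM at the 2-cell stage, 8.85 and 4.97 TPM at the 4-cell stage, 2.16 and 2.49 TPM at the 8-cell stage and 9.60 and 11.3 TPM in blastocysts. The sperm sample had 3.08 and 5.65 TPM. The oocyte, 1-cell and 2-cell values overlapped each other and lay above every later one, and the 8-cell values were the lowest of all and did not overlap those of any other embryo stage. The mean fell from 77.3 ± 34.5 TPM in oocytes to 2.33 ± 0.24 TPM at the 8-cell stage and stood at 10.4 ± 1.2 TPM in blastocysts (SD, n = 2).

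Plagl1, whose protein is a zinc finger transcription factor, had a low level that left no signal in the blastocyst. The upstream transcript was at 3.57 and 2.32 TPM in oocytes and 2.63 and 5.49 TPM at the 1-cell stage. It was at 2.66 and 4.59 TPM at the 2-cell stage and 1.08 and 0.356 TPM at the 4-cell stage. At the 8-cell stage it had 0.313 and 0 TPM, and it was listed at 0 in both blastocyst libraries. The oocyte, 1-cell and 2-cell values overlapped, and those of the 4-cell, 8-cell and blastocyst libraries lay below all of them. The sperm libraries disagreed, with 0 and 13.9 TPM.

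Snrpn encodes SmN, a core protein of spliceosomal small nuclear ribonucleoproteins, and reached the highest level of the 9 genes. It was at 11.5 and 46.3 TPM in oocytes, 16.7 and 12.7 TPM at the 1-cell stage, 18.1 and 108 TPM at the 2-cell stage, 175 and 224 TPM at the 4-cell stage, 416 and 390 TPM at the 8-cell stage and 780 and 96.1 TPM in blastocysts. The 4-cell values lay above all earlier ones and the 8-cell values above those, while the 2 blastocyst libraries lay on either side of both stages. The sperm sample had 21.5 and 3.40 TPM.

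Igf2r, the receptor that carries IGF2 to the lysosome, is the only gene of the 9 that is known for expression from the maternal allele, and its values formed a peak. They were 2.51 and 1.45 TPM in oocytes, 1.08 and 0.182 TPM at the 1-cell stage, 10.4 and 28.5 TPM at the 2-cell stage, 141 and 252 TPM at the 4-cell stage, 186 and 77.3 TPM at the 8-cell stage and 24.1 and 10.7 TPM in blastocysts. The 4-cell and 8-cell values overlapped each other and lay above all others, and the blastocyst values fell in the range of the 2-cell stage. The sperm sample had 2.46 and 0.759 TPM.

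The piece assigned to Impact, a gene whose product restrains the kinase GCN2, was listed at 0 in all oocyte and 1-cell libraries. It was at 2.63 and 7.12 TPM at the 2-cell stage, 9.22 and 11.8 TPM at the 4-cell stage, 11.0 and 10.4 TPM at the 8-cell stage and 4.94 and 1.74 TPM in blastocysts, with 11.9 and 5.71 TPM in sperm. The 4-cell and 8-cell values overlapped and lay above those of the 2-cell stage and the blastocyst.

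The 4 genes with an H3K27me3 imprint had hardly any transcript before the 2-cell stage. Over these 4 genes the oocyte libraries held at most 0.0408 TPM, in Gab1, and the 1-cell libraries at most 0.326 TPM, in Jade1. All 4 were present in both 4-cell libraries. A pattern of less than 0.5 TPM in the 4 oocyte and 1-cell libraries with at least 1 TPM in both 4-cell libraries held for these 4 genes and for Impact, and it held for 852 of all 10000 genes tested (8.52%).

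Jade1, a scaffold subunit of HBO1 histone acetyltransferase complexes, had the highest mean of the 4 at each stage from the 2-cell embryo on, as the sum of its 2 pieces. Both pieces lie in the last exon, so a message read in both is counted 2 times. In blastocysts the piece of 423 bases, which had the higher TPM, was alone at 67.2 and 9.72 TPM, below Slc38a4 at 68.0 and 13.3 TPM. The sum for Jade1 was listed at 0 in both oocyte libraries and in 1 of the 1-cell libraries, with 0.326 TPM in the other. It stood at 20.1 and 54.9 TPM at the 2-cell stage and 50.9 and 44.5 TPM at the 4-cell stage. At the 8-cell stage it was at 38.7 and 38.8 TPM, and in blastocysts at 98.5 and 12.9 TPM. The 2-cell values overlapped those of all later stages. Gab1, an adaptor protein downstream of receptor tyrosine kinases, was present at lower levels, with 0.0261 and 0.0408 TPM in oocytes, 0.0667 and 0.0759 TPM at the 1-cell stage, 1.75 and 4.75 TPM at the 2-cell stage, 6.33 TPM in both 4-cell libraries, 4.802 and 4.57 TPM at the 8-cell stage and 14.2 and 2.55 TPM in blastocysts.

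Slc38a4, an amino acid transporter of the placenta, and Sfmbt2, a Polycomb group protein needed in the trophoblast, had their highest values in blastocysts. Slc38a4 was at 0.0280 and 0 TPM in oocytes, 0.0958 and 0.0275 TPM at the 1-cell stage, 0.146 and 1.41 TPM at the 2-cell stage, 1.26 and 1.43 TPM at the 4-cell stage, 4.85 and 6.32 TPM at the 8-cell stage and 68.0 and 13.3 TPM in blastocysts. Both blastocyst libraries lay above both 8-cell libraries, and these above all earlier ones. Sfmbt2 was listed at 0 in all oocyte and 1-cell libraries and had 0.604 and 4.64 TPM at the 2-cell stage, 1.82 and 2.07 TPM at the 4-cell stage, 3.63 and 2.49 TPM at the 8-cell stage and 22.9 and 4.35 TPM in blastocysts. Its blastocyst values lay above both 8-cell values but not above 2-cell 2.

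In the sperm sample the 4 genes had 1.42 to 11.1 TPM, the highest of them Jade1 with 7.14 and 11.1 TPM. Sperm entered no test, since the markers of leukocytes and of the epididymis were high in the same libraries and their part in these levels was not tested.

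**Figure D3:**
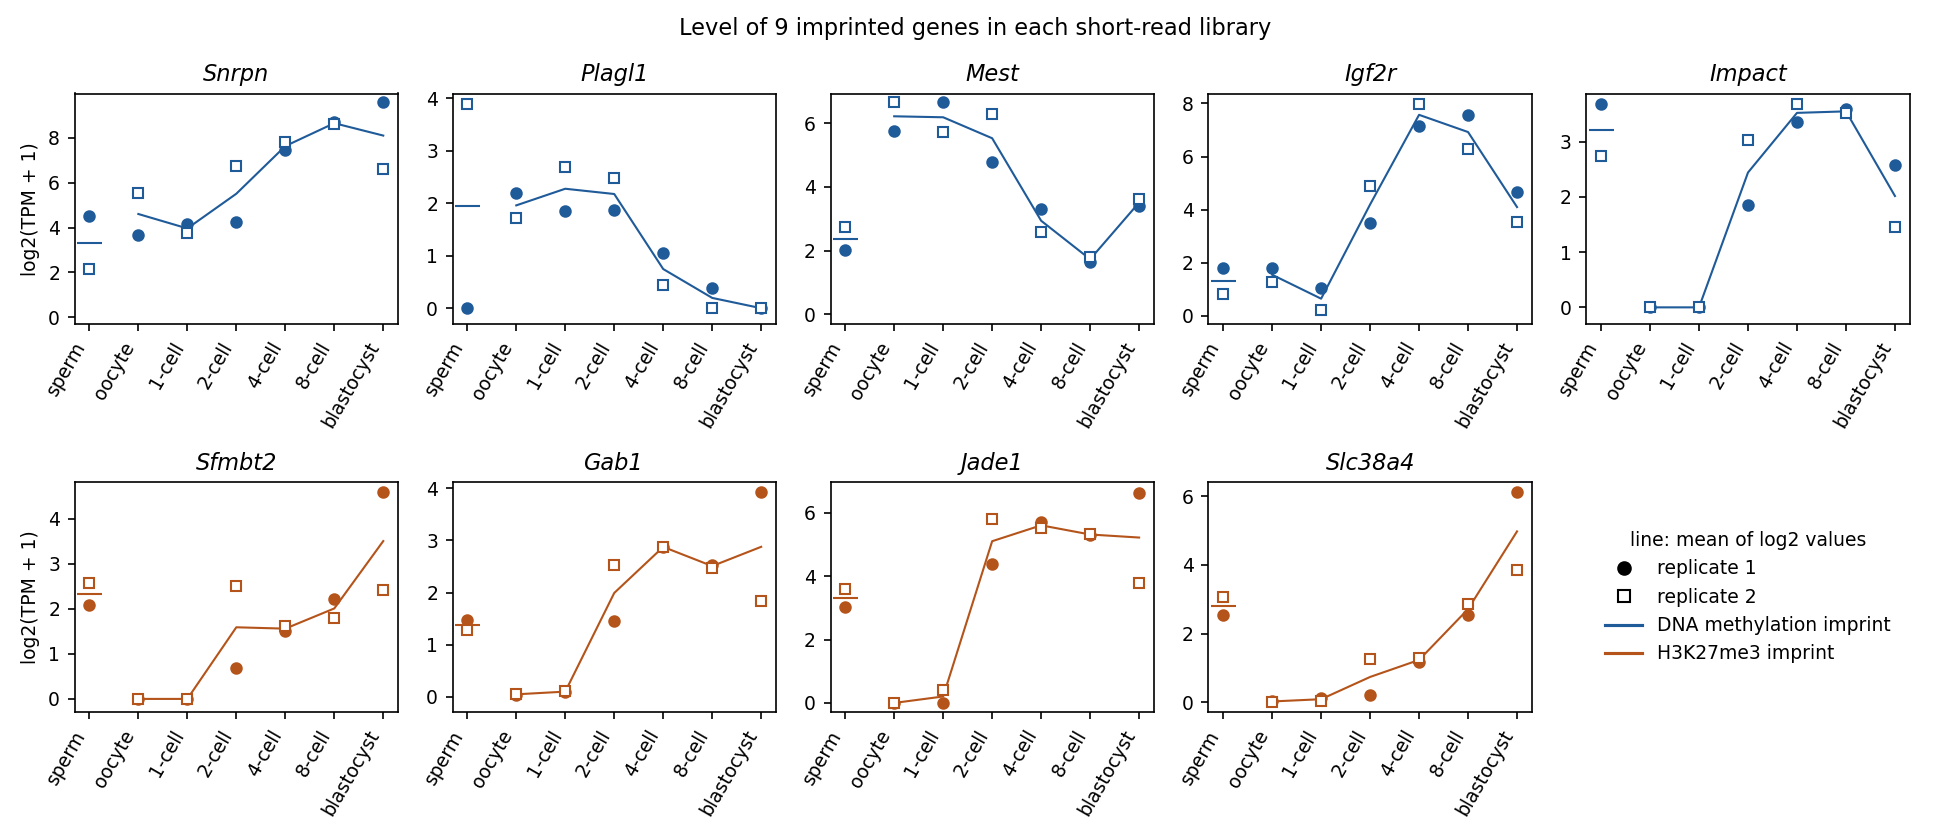
Level of the 9 genes as log2(TPM + 1) in each of the 14 libraries, with replicate 1 as filled circles, replicate 2 as open squares and a line through the mean of the log2 values from oocyte to blastocyst (blue, DNA methylation imprint; orange, H3K27me3 imprint). Leaving sperm aside, Mest and Plagl1 are highest from oocyte to 2-cell, Igf2r peaks at 4-cell and 8-cell, and the H3K27me3 genes are near 0 until the 2-cell stage.

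The tests of stage used limma on log2(TPM + 1). All 12 oocyte and embryo libraries entered 1 fit, and p-values were adjusted over all 10000 genes that had at least 1 TPM in at least 2 libraries. All 9 genes with a transcript passed this filter, and 5 of them passed it without reaching 1 TPM in any oocyte or 1-cell library. A change on this scale understates that of genes near 0, and against a stage listed at 0 it is set by the pseudocount of 1. Adjacent comparisons share the libraries of 1 stage, so their values are given side by side and not combined. The labels do not say that the 2 batches came from different animals, and the p-values then measure only the spread between these libraries.

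From oocyte to blastocyst all 9 genes passed the test, while 53.4% of all genes did so. Of the 9 genes, 7 rose, against 35.4% of all genes, and Mest and Plagl1 fell, against 18% of all genes. The rises on the log2(TPM + 1) scale were 5.22 ± 0.85 for Jade1 (SE, adjusted p of limma = 0.000201), 4.95 ± 0.68 for Slc38a4 (5.32e-05), 3.50 ± 0.72 for Sfmbt2 (0.00101), 3.50 ± 1.03 for Snrpn (0.0107), 2.83 ± 0.67 for Gab1 (0.00275), 2.55 ± 0.77 for Igf2r (0.0123) and 2.01 ± 0.60 for Impact (0.0118). Mest fell by 2.71 ± 0.73 (adjusted p = 0.00634) and Plagl1 fell by 1.96 ± 0.52 (0.00574). The median of all genes on this scale was 0.82 higher in blastocysts and the median of the 9 genes was 2.83. Sfmbt2, Gab1, Jade1, Slc38a4 and Impact had passed the filter only through later stages, which favours a rise, so the count and the median are descriptions and say nothing particular of these genes. With quantile normalization, which removes most of that shift (median 0.07), Igf2r no longer passed (adjusted p = 0.115), and over all genes 2659 were then higher and 2639 lower, in place of 3540 and 1797.

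Single libraries decided 4 of these calls. Snrpn no longer passed without oocyte 1 (change of 2.54, adjusted p = 0.113) or without blastocyst 1 (2.00, 0.162), Igf2r without oocyte 2 (2.29, 0.0683) or blastocyst 1 (1.99, 0.0972), Mest without oocyte 2 (-2.24, 0.0546), and Impact without either oocyte library (2.01, 0.0550 and 0.0529) or blastocyst 1 (1.46, 0.0935). Plagl1, Sfmbt2, Gab1, Jade1 and Slc38a4 passed without each of the 12 libraries in turn, although without blastocyst 1 the change of Gab1 was 1.78. The size of the rise of the low genes depends on the pseudocount: with 0.1 in place of 1 it was 8.48 for Jade1, 8.06 for Slc38a4, 6.66 for Sfmbt2, 5.53 for Gab1 and 4.93 for Impact, and -4.90 for Plagl1.

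From oocyte to 1-cell embryo none of the 9 genes passed the test of limma or had an unadjusted p under 0.05, as 920 of the 10000 genes did, and 0.38% of all genes were called, 0.33% as higher and 0.05% as lower (33 and 5 genes, or 12 and 5 with quantile normalization). The largest difference was that of Igf2r, -0.90 ± 0.77 (SE, adjusted p = 0.869), whose 1-cell values lay below both oocyte values. The levels of Mest differed by -0.03 ± 0.73 (adjusted p = 1), and Sfmbt2 and Impact were listed at 0 on both sides.

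From 1-cell to 2-cell embryo 4 genes rose and none fell, and 32.3% of all genes were called, 26.1% as higher and 6.2% as lower. Of the 4 genes, Jade1, Impact and Gab1 had passed the filter only through the 2-cell and later stages. That favours a rise, so the count is a description. Jade1 rose by 4.90 ± 0.85 on the log2(TPM + 1) scale (SE, adjusted p of limma = 0.000856) and passed in all 21 alternative settings. Igf2r rose by 3.54 ± 0.77 (0.00355), Impact by 2.44 ± 0.60 (0.00758) and Gab1 by 1.89 ± 0.67 (0.0431). Both 2-cell libraries lay above both 1-cell libraries also for Sfmbt2 (change of 1.59, adjusted p = 0.105), Snrpn (1.55, 0.272) and Slc38a4 (0.65, 0.502), which did not pass. The share of all genes that lay apart in this way was not counted, so it is only a description of these genes. The median of all genes was 0.72 higher at the 2-cell stage, about as much as the difference of Slc38a4. With quantile normalization, which took that median to -0.12, 1592 genes were higher and 1759 lower in place of 2607 and 620, and 3 of the 9 genes rose while Plagl1 fell (-1.52, adjusted p = 0.0287).

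The call of Gab1 was the weakest of the 4. It was lost in 13 of 21 alternatives, among them quantile normalization (0.75, adjusted p = 0.234), the replicate block (0.0605) and 9 of the 12 fits with 1 library left out, and it held only without 2-cell 1, blastocyst 1 or blastocyst 2 among those. Impact was lost without 1-cell 2 (adjusted p = 0.0539). With a spread weighted by stage, Jade1 alone passed. Without 2-cell 1, the library with the lower sum of 2-cell markers, Sfmbt2 passed as well (2.49, adjusted p = 0.0112), and without both 2-cell 1 and blastocyst 2, a setting chosen after seeing the data, 7 of the 9 genes rose, Snrpn (2.80, 0.0233), Sfmbt2 (2.49, 0.000546) and Slc38a4 (1.19, 0.0248) included.

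From 2-cell to 4-cell embryo Igf2r rose by a further 3.37 ± 0.77 (SE, adjusted p of limma = 0.0368), from a mean of 19.4 ± 12.9 to 197 ± 78 TPM (SD, n = 2), and it was the only gene of the 9 to pass, while 3.24% of all genes were called, 1.49% as higher and 1.75% as lower (149 and 175 genes, or 609 and 466 with quantile normalization). Its call was lost in 12 of 21 alternatives, including those without any 1 of the oocyte, 1-cell, 4-cell or 8-cell libraries (adjusted p from 0.0525 to 0.357). Mest, at 8.85 and 4.97 TPM after 26.3 and 77.0 TPM, did not pass (-2.59 ± 0.73, adjusted p = 0.0609), nor did Plagl1 (-1.43 ± 0.52, 0.119) or Snrpn (2.13 ± 1.03, 0.219). The libraries of the 2 stages did not overlap for any of these 3 genes, but the share of all genes without such an overlap was not counted. Without 2-cell 1, Mest (-3.35, 0.0104) and Plagl1 (-1.74, 0.0326) passed as lower, and without 2-cell 2 Snrpn passed as higher (3.38, 0.0485).

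From 4-cell to 8-cell embryo none of the 9 genes passed the test of limma, 1 had an unadjusted p under 0.05, as 1569 of the 10000 genes did, and 1.69% of all genes were called, 0.77% as higher and 0.92% as lower (77 and 92 genes, or 180 and 78 with quantile normalization). That gene was Slc38a4 (1.48 ± 0.68, adjusted p = 0.314), whose 8-cell values lay above both 4-cell values. These 4 libraries agreed more closely than those of other stages, and in a fit on them alone Slc38a4 (adjusted p = 0.0160) and Snrpn (0.0328) passed as higher and Mest (-1.21, 0.0497) as lower.

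From 8-cell embryo to blastocyst none of the 9 genes passed, 4 had an unadjusted p under 0.05, as 1441 of the 10000 genes did, and limma called 3% of all genes, 1.51% as higher and 1.49% as lower. Igf2r was at 24.1 and 10.7 TPM after 186 and 77.3 TPM (-2.82 ± 0.77, adjusted p = 0.0676), and Slc38a4 was at 68.0 and 13.3 TPM after 4.85 and 6.32 TPM (2.26 ± 0.68, 0.0989). Both passed without 2-cell 1 (adjusted p = 0.0184 and 0.0279) or 2-cell 2 (0.0188 and 0.0298), which enter this comparison only through the shared spread, and Slc38a4 passed without blastocyst 2 (3.40, 0.0232). The other differences with an unadjusted p under 0.05 were those of Mest (1.78 ± 0.73, adjusted p = 0.263) and of Impact (-1.53 ± 0.60, 0.239).

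**Figure D4:**
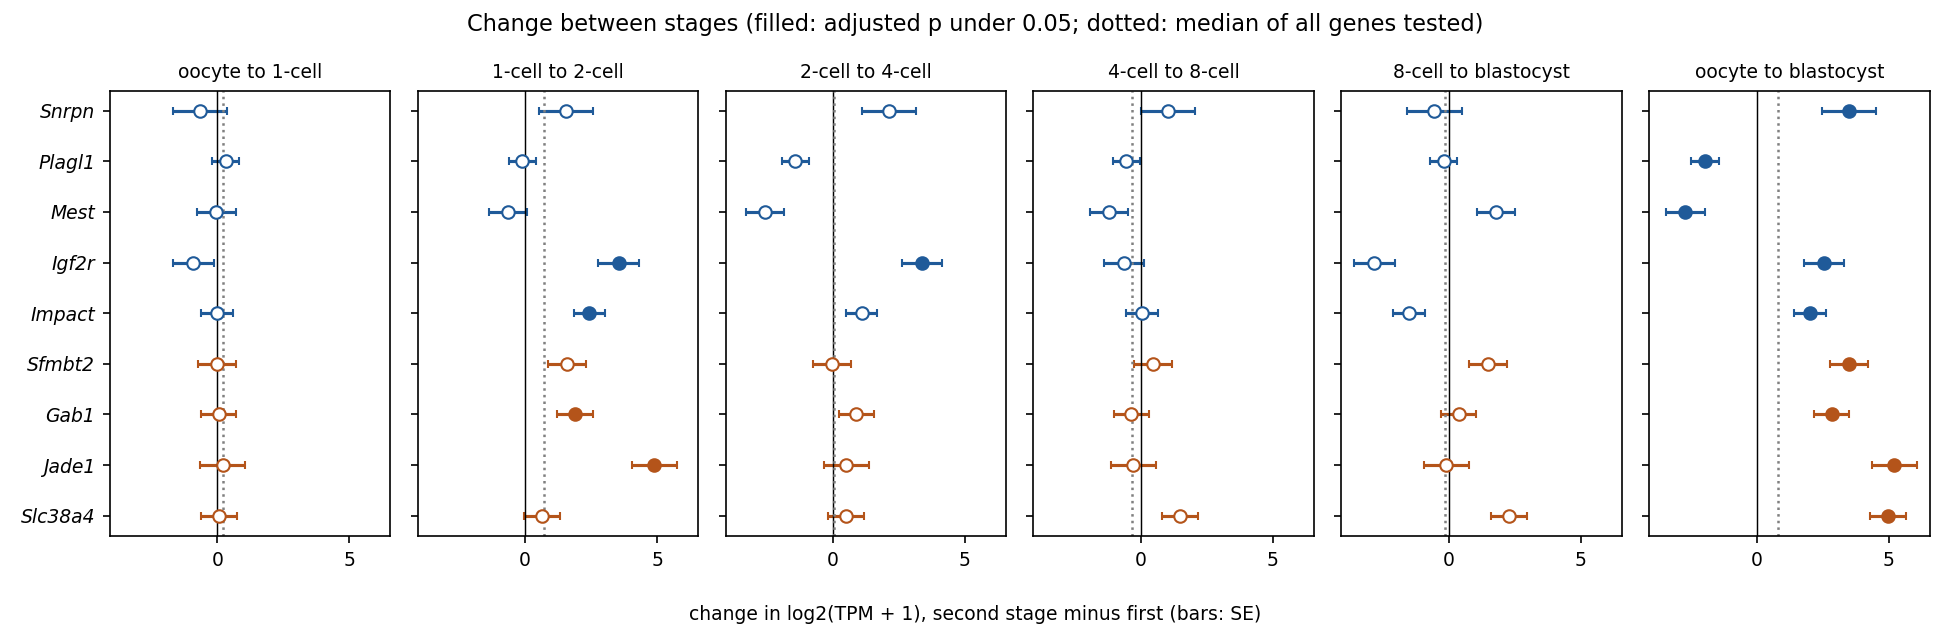
Change of each gene in log2(TPM + 1) with its SE in the 5 adjacent comparisons and from oocyte to blastocyst, filled where the adjusted p was under 0.05, with the median of all genes tested as a dotted line (blue, DNA methylation imprint; orange, H3K27me3 imprint). In the last panel all 9 points are filled, 7 of them to the right of 0 and those of Mest and Plagl1 to the left.

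The replicates of 2 stages differed in a way that many of these genes shared, as did most of all genes tested. At the 2-cell stage all 9 genes were lower in replicate 1 than in replicate 2, with a median difference of -1.38 on the log2(TPM + 1) scale. The median of all genes was also lower there, at -0.98, but the share of all genes that were lower was not counted. In blastocysts 7 of the 9 genes were higher in replicate 1, with a median difference of 2.10 against 0.34 for all genes. Of all genes, 63.9% were at least as high in replicate 1 as in replicate 2 there and 39% at least as low. Ties, such as Plagl1 at 0 in both, count in both shares. The difference was largest for Snrpn (3.01, reached by 1.39% of genes) and Jade1 (2.84, reached by 2.23% of genes), and it was -0.21 for Mest.

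The trophectoderm markers also differed between these libraries, in the opposite direction. The 5 trophectoderm markers that had a transcript summed to 10122 TPM in blastocyst 1 and 37431 TPM in blastocyst 2. Cdx2 and the keratins Krt8 and Krt18 were among them. Of 6 inner cell mass markers, the 4 that had a transcript summed to 347 and 314 TPM. Singly these were Pou5f1 at 206 and 200 TPM, Nanog at 73.7 and 30.9, Gata6 at 54.2 and 43.2, and Sox2 at 13.2 and 40.4. The part of the 2 sets of markers in the levels of the imprinted genes was not tested. In such pooled samples fewer cells of a type and less RNA per cell cannot be told apart.

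**Figure D5:**
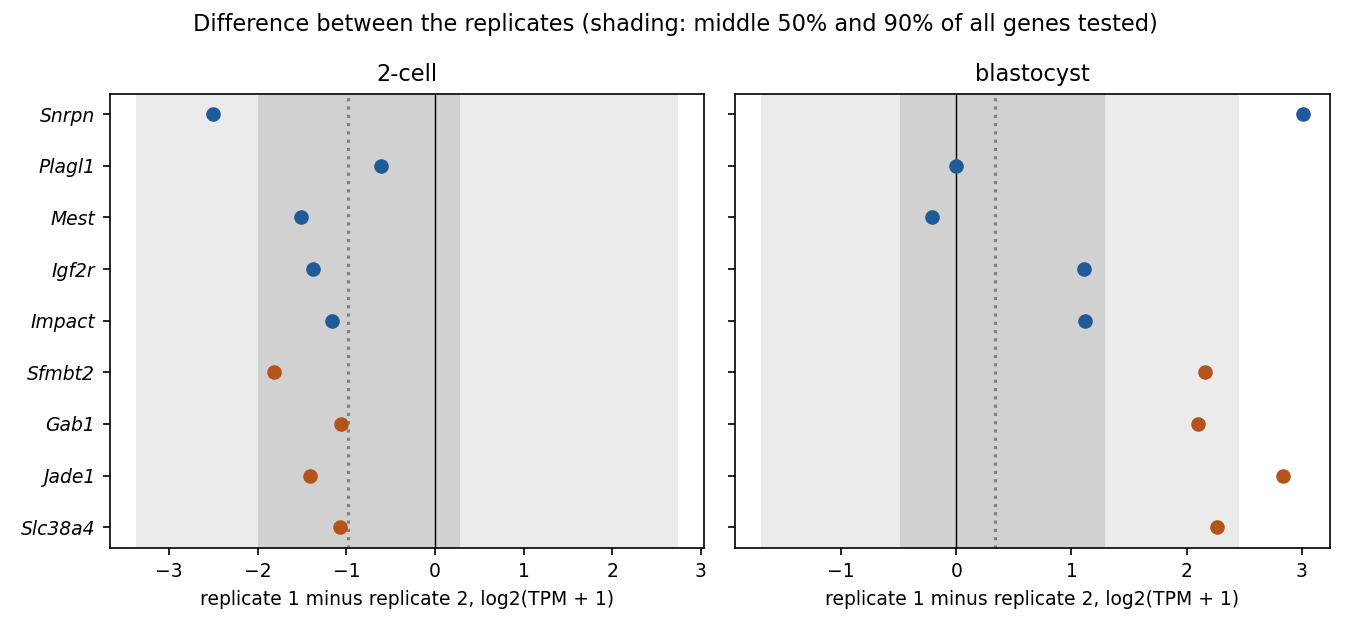
Difference between replicate 1 and replicate 2 in log2(TPM + 1) for each gene at the 2-cell stage (left) and in blastocysts (right), with the middle 50% and 90% of all genes shaded and their median dotted (blue, DNA methylation imprint; orange, H3K27me3 imprint). All 9 points lie below 0 at the 2-cell stage, and in blastocysts Snrpn and Jade1 lie above the middle 90%.

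The use of first exons was compared for the 4 genes that had more than 1 transcript start, Snrpn, Jade1, Sfmbt2 and Slc38a4, as the log2 ratio of the TPM from 1 start to that of the others of the gene. From oocyte to blastocyst 2 of the 8 starts passed the test of limma, beside 24.5% of the 5772 starts tested in all. Both belonged to Slc38a4, with a ratio of the annotated start that rose by 4.13 ± 0.54 (SE, adjusted p = 0.000845), and its mirror image at the second start. Because the oocyte libraries held at most 0.0280 TPM of the gene, the oocyte ratio is that of the pseudocounts, and the change is that of the level of the gene. Where the gene was above 1 TPM the annotated start made up 87.2% of its TPM in 2-cell 2, 100% in both 4-cell libraries, 89.3% and 93.0% at the 8-cell stage and 97.0% and 100% in blastocysts.

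For Snrpn the starts within 31 bases of the annotated one gave 91.5% and 100% of the TPM in oocytes and 99.3% and 98.5% in blastocysts, and the ratio did not pass (2.10 ± 1.05, adjusted p = 0.184). The 2 pieces of Jade1 and the 3′ piece of Sfmbt2 begin inside exons near the 3′ end, at no annotated start, and their ratios did not pass (adjusted p = 0.115 and 0.515). Without oocyte 2 the count of called starts was 4.

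Other imprinted genes were described by a list of 56 genes, most of which had no long-read transcript. Of the 20 that had one, 19 were tested, and from oocyte to blastocyst 4 rose and 4 fell, beside 35.4% and 18% of all genes, with a median change of -1.09 beside 0.82 for all genes. Those that rose were Mcts2, a copied gene inside an intron (3.82), Cd81, a tetraspanin (3.69), Commd1 (3.01) and the noncoding RNA Meg3 (2.00), and those that fell were Blcap (-4.42), the cation transporter Slc22a3 (-2.78), Cobl (-2.63) and Usp29 (-1.86). Usp29, which shares its imprinted promoter region with Peg3 but is read from the other strand, was at 13.1 to 34.4 TPM in the 2-cell and 4-cell libraries and at most 1.88 TPM in the 8-cell and blastocyst libraries.

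Of 11 further genes listed with maternal H3K27me3 imprinting, 5 had a transcript and were tested, and 4 rose from oocyte to blastocyst, where 35.4% of all genes were called as higher: Xist, the noncoding RNA that silences an X chromosome (5.50, adjusted p of limma = 0.00139), Epas1, a hypoxia-inducible transcription factor (5.43, 1.12e-05), Rbms1, an RNA-binding protein (4.71, 6.09e-05), and Mbnl2, a splicing regulator (2.16, 0.00179). None fell, and Bbx, the other gene tested, was at 36.7 and 20.5 TPM in oocytes and did not pass (1.41, adjusted p = 0.121). All 4 that rose were under 1 TPM in both oocyte libraries and passed the filter only through later stages. Their count and the list's median of 4.71, beside 0.82 for all genes, are therefore descriptions.

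All 9 genes listed for the upkeep of methylation imprints in the embryo were tested, among them Tet3, which is not itself a keeper of imprints. From oocyte to blastocyst 1 rose and 3 fell, beside 35.4% and 18% of all genes, and the median change was -0.92 beside 0.82. Zfp445, a zinc finger protein that protects imprints together with ZFP57, rose (4.40 ± 0.68, SE, adjusted p of limma = 0.000132), while Tet3, the oxidase of methylcytosine in the zygote (-6.52), Zfp57 (-3.04) and Nlrp2 of the subcortical maternal complex (-2.30) fell. Zfp57 was at 300.5 and 691 TPM in oocytes, 9859 and 5473 TPM at the 1-cell stage, 149 and 89.2 TPM at the 2-cell stage and 43.0 and 69.0 TPM in blastocysts. From oocyte to 1-cell embryo it passed as higher (4.01 ± 0.73, adjusted p = 0.0399), but no gene was called as higher there on 4 libraries or without oocyte 2, 1-cell 1 or 1-cell 2. Zfp445 was at 0.743 and 0.212 TPM in oocytes and at 60.2 and 59.5 TPM at the 2-cell stage.

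By Pearson r of log2(TPM + 1) over the 12 libraries, which share stages, the genes most like each imprinted gene were read off as a description. They were Rab8a (r = 0.983) and Gpd2 (0.976) for Snrpn, Cntn6 (0.986) and Gm17751 (0.970) for Plagl1, Hyls1 (0.974) and Socs6 (0.966) for Mest, and Ulk1 (0.986) and AC102496.1 (0.984) for Igf2r. For Impact they were Fkbp11 (0.994) and Gpr161 (0.994). For the H3K27me3 genes they were Tceal9 (0.977) and Tmem139 (0.975) for Sfmbt2, Ift172 (0.989) and Mmachc (0.985) for Gab1, Creb3 (0.987) and Scd1 (0.986) for Jade1, and AA467197 (0.996) and Gmfg (0.988) for Slc38a4. Among the 9 genes themselves, Gab1 and Jade1 (0.972) and Igf2r and Impact (0.968) were the most alike, and Mest and Igf2r (-0.83) the most opposed.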

How the data were processed

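The authors aligned long reads to mm10, collapsed them by stage and merged the stages, and deposited the coordinates of every exon. The submitters' processing notes name GSNAP, STAR, Cufflinks and Salmon. Salmon gave the deposited TPM of each merged transcript in each library, which hold no read depth, so no interval or floor of a level is given. Each transcript was assigned to the GENCODE vM21 gene (GRCm38, the assembly of mm10) with the largest exon overlap on the same strand, which placed 18333 of 22612 transcripts, and gene TPM was summed. The methods name vM20.

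Groups follow the titles, also for the 8-cell replicates, which the file names number the other way round. Stages were compared with limma 3.58.1 in R 4.3.3 (eBayes with a trend, stage as the only term) on log2(TPM + 1), for genes of at least 1 TPM in at least 2 of 12 libraries, with Benjamini-Hochberg adjustment and a threshold of 0.05. First exons were joined within 100 bases. Alternatives were a pseudocount of 0.1, no filter or one of 5 TPM, quantile normalization, a fit on 4 libraries, a spread weighted by stage, a replicate block, a shared splice site for the gene assignment, first exons joined within 300 bases and each library left out.

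The genes and lists were chosen with earlier results of these data known. Named genes are all 10 chosen genes, every gene of a list called from oocyte to blastocyst, up to 6 in each direction, and the 2 genes most like each chosen gene. Bbx is named as the other tested gene of its list. The fits were tried on simulated data first. Python 3.11.15, numpy 2.4.6, pandas 2.3.3 and matplotlib 3.10.9 were used.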

Additional observations from a re-analysis of the deposited data

How the results depend on the processing

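The counts of imprinted genes called kept within 1.5 times under every alternative from oocyte to 1-cell embryo and from oocyte to blastocyst, where they ran from 0 to 0 and from 6 to 9 over the fits with 1 library left out. From 1-cell to 2-cell embryo the 4 calls became 1 with a spread weighted by stage, 2 to 5 with 1 library left out and 7 without 2-cell 1 and blastocyst 2, a pair chosen after seeing the data. From 2-cell to 4-cell embryo the 1 call became 0 with a pseudocount of 0.1, on 4 libraries, with a weighted spread or with the replicate block, 2 with quantile normalization, 0 to 3 with 1 library left out and 3 without that pair. From 4-cell to 8-cell embryo the 0 calls became 3 on 4 libraries, 2 with a weighted spread and 1 without that pair, and stayed at 0 to 0 with 1 library left out. From 8-cell embryo to blastocyst the 0 calls became 2 with quantile normalization, a weighted spread or that pair left out, and 0 to 2 with 1 library left out. The 2 first exons called became 2 to 4. No called gene reversed its direction, and 253 single-gene repeats kept the call while 37 lost it. Over all genes the number called moved more: from 38 to between 0 (4 libraries) and 242 (that pair left out) from oocyte to 1-cell embryo, from 3227 to between 1079 (4 libraries) and 4114 (that pair) from 1-cell to 2-cell embryo, from 324 to between 0 (4 libraries) and 2308 (that pair) from 2-cell to 4-cell embryo, from 169 to between 0 (without 4-cell 1) and 3920 (weighted spread) from 4-cell to 8-cell embryo, from 300 to between 0 (4 libraries) and 801 (without 2-cell 1) from 8-cell embryo to blastocyst, and from 5337 to between 4309 (without blastocyst 1) and 6199 (without 2-cell 1) from oocyte to blastocyst. The causes were not tested. The replicate numbers do not pair the libraries: the difference of replicate 1 and 2 correlated between stages with r from -0.55 to 0.48, over 0.1 in 5 of 15 pairs of stages. The replicate block gave 3 calls from 1-cell to 2-cell embryo (Gab1 at adjusted p = 0.0605), 0 from 2-cell to 4-cell embryo (Igf2r at 0.0663) and changed no other call. The shared splice site left Impact without a value and gave 8 calls from oocyte to blastocyst. With 2 libraries a stage, small changes of genes near 0 TPM may go unseen.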

Other observations

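Genes of the enzymes that place the 2 kinds of imprint were compared from oocyte to blastocyst, where 35.4% of all genes were higher and 18% lower. Of 4 listed genes of germ line DNA methylation, Kdm1b, the histone demethylase needed for methylation of some imprinted regions, fell from 17.9 and 127 TPM in oocytes to 3.71 and 1.73 TPM in blastocysts (-3.78 ± 1.00 on the log2(TPM + 1) scale, SE, adjusted p of limma = 0.00560), and the other 3 did not pass. Of 10 listed genes of Polycomb repressive complex 2, which writes H3K27me3, 9 were tested. Rbbp7 (-3.48), the catalytic subunit Ezh2 (-2.81) and the core subunit Eed (-2.14) fell, and Jarid2, an accessory subunit, rose (2.30 ± 0.88, adjusted p = 0.0385). Their median change was -0.77 beside 0.82 for all genes.

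Xist separated the replicates of 2 stages in the same direction as most of the imprinted genes, which was also that of the median of all genes. On the log2(TPM + 1) scale that median of replicate 1 minus replicate 2 was -0.98 at the 2-cell stage and 0.34 in blastocysts. A link of Xist to the imprinted genes was not tested. Its level was 1.09 TPM in 2-cell 1 and 33.6 TPM in 2-cell 2, and 155 TPM in blastocyst 1 and 14.6 TPM in blastocyst 2. The 4-cell libraries had 83.9 and 54.7 TPM.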
